A study of Mus musculus with 18 samples.

Results

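Integrins are the receptors by which cells hold on to the matrix and to each other. The results below follow 10 of their chains in mouse colon tumour RNA: the α chains Itga2, Itga3, Itga4, Itga6 and Itgav and the β chains Itgb1, Itgb4, Itgb5, Itgb6 and Itgb8. They were chosen by name, as the rows of the deposited count table with these gene symbols, which gave 10 of 54354 rows. Of these, 9 had enough counts to be tested and 1, Itgb8, did not. The table lists 17 further integrin chains, which are described after the chosen ones.

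An integrin is a pair of 1 α and 1 β chain, both crossing the membrane, with the ligand bound outside and the adaptor proteins talin and kindlin bound to the β tail inside. In the gut epithelium Itga6 with Itgb4 anchors cells to laminin through hemidesmosomes, while Itga2 and Itga3 pair with Itgb1 and bind mainly collagen and laminin respectively. Itgav pairs with Itgb5, Itgb6 or Itgb8 to bind matrix proteins that carry an RGD motif, and with Itgb6 or Itgb8 it releases active TGF-β from its latent complex. Itga4 is best known from leukocytes, where it pairs with Itgb1 or Itgb7 and binds Vcam1, fibronectin and Madcam1.

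The groups compared were SF_CD (5 libraries, treatment labelled Serine-free CD) and SF_HFD (5 libraries, treatment labelled Serine-free HFD). Both carry the labels colon, tumor and wild type, and all 10 libraries share the lack of serine in the diet; the age of the animals and the number of animals behind each group are not given in the labels. Per the labels' protocols the RNA came from organoids, whereas the design text of the series speaks of live cells sorted from normal colons or primary tumours, so the starting material is not settled by the sources used here. The series also has 3 CD and 5 HFD libraries (the same diets without the serine-free label), which were not used, because the gene names of the rows do not match their counts: Actb, Gapdh, Eef1a1 and Epcam read 0 in 8 of 8 of them, as did the rows named Itga2, Itga3, Itga6 and Itgb6. Serine-free diets can therefore be compared with each other here, but not with the diets that contain serine.

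Depth varied strongly. Library totals ran from 499774 to 12841275 counts, and SF_CD libraries 1 and 5 and SF_HFD library 5 held under 1000000, so that 3 counts correspond to 0.234 CPM (counts per 1000000) in the deepest library and to 6.003 CPM in SF_CD library 1. That library also had 22% of its counts in ribosomal RNA genes and 12.1% in Malat1, a nuclear RNA, and SF_CD library 5 had 14.5% in ribosomal RNA genes, against 2.08% to 7.19% in the others. Epithelial markers, 12 of 12 tested, summed to 2794 to 6860 CPM in SF_CD and 5151 to 11720 CPM in SF_HFD. Values below are CPM normalised by the trimmed mean of M-values (TMM), with mean ± SD over 5 libraries, and changes are log2 fold changes of SF_HFD minus SF_CD ± standard error from edgeR's quasi-likelihood test, adjusted by Benjamini-Hochberg over the 11780 genes tested. A gene is said to change where the adjusted p is under 0.05. Whether the 5 libraries of a diet are separate animals, separate cultures or repeats is not stated, so the error in every test is the scatter of these libraries, which can be technical.

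Among the 9 chains tested, 1 changed: Itga4 was lower in SF_HFD. Across all genes tested 0.323% were called in either direction and 0.17% as lower. Itga4 was also the only one of the 9 whose 5 SF_CD and 5 SF_HFD values did not overlap, which held for 3.65% of all genes. The log2 fold change was positive for 6 chains and negative for 3, with a median of 0.22 against 0.02 over all genes. Itga2 and Itga3 had unadjusted p-values under 0.05 with higher means in SF_HFD, and neither passed the adjusted threshold. Of all 11780 genes tested, 1372 had an unadjusted p under 0.05. DESeq2 also called Itga4 alone among the chains, and limma-voom called none, against 298 and 173 over all genes. When changes were planted in counts simulated on these libraries, 37.4% of those of 4-fold and 1% of those of 2-fold were called, so a change of the size seen in most chains would rarely have passed.

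**Figure D1:**
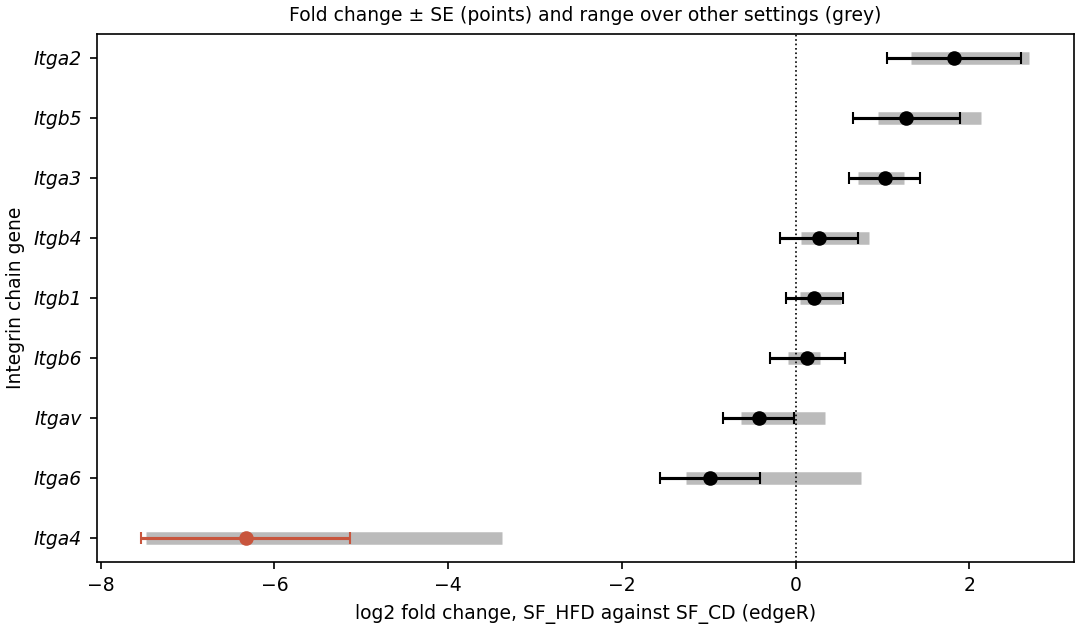
Log2 fold change (SF_HFD minus SF_CD) with its standard error for the 9 integrin chains tested, from edgeR's quasi-likelihood test on 10 libraries; grey bars span the values under the other settings and red marks the chain that was called. Itga4, at -6.33, lies far to the left of the others, which run from -0.98 for Itga6 to 1.82 for Itga2 and did not pass the adjusted threshold.

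The 250 bases upstream of the annotated start are shown for Itga4 and Itga2, the chains that differed most between the groups and in opposite directions. The Itga4 window is chr2:79255176-79255425 on the plus strand and the Itga2 window is chr13:114932101-114932350 on the minus strand (RefSeq, GRCm38.p6), each printed 5′ to 3′ in the direction of transcription. Capitals mark a GC box, GGGCGG, the only one of 4 motifs searched that was found in either.
Itga4: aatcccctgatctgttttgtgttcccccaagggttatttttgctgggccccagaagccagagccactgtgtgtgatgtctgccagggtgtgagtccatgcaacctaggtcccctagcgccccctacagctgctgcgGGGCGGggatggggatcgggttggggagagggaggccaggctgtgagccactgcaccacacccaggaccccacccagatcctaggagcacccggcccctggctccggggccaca
Itga2: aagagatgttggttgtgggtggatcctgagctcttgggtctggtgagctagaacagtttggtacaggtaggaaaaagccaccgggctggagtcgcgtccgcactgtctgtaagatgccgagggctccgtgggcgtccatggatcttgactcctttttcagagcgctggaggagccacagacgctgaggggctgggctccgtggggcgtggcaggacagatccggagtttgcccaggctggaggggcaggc

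RefSeq windows were matched for 8 of the 10 chains, 10 windows in all because Itga3 and Itgb6 have alternative starts. On either strand, GGGCGG occurred in 5 of the 10 windows and in 32.7% of 32851 such windows of all genes. CCAAT occurred in 2 of 10 and in 33.8% of all, while TGANTCA (the AP-1 type) and TATAAA occurred in 0 of 10, against 6.75% and 12.4% of all. GC content was 64.0% with 6 CpG in the Itga4 window and 60.8% with 12 CpG in the Itga2 window. The windows of all the chains ranged from 38.0% to 68.0% GC with 3 to 22 CpG, and the medians over all genes were 52.4% and 6. These matches describe the letters of the windows and are not evidence of binding.

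Per kilobase of exon, the scale on which different genes can be set side by side, Itgb1 and Itga6 led in both groups. In SF_CD the mean levels were 39.9 ± 12.3 CPM per kilobase for Itgb1, the β chain shared by most matrix receptors, and 29.5 ± 34.9 for Itga6, followed by Itga3 (7.10), Itgb4 (6.04), Itgav (3.43), Itgb6 (1.86), Itga2 (1.58), Itga4 (1.52), Itgb5 (0.945) and Itgb8 (0.0301). No neighbours in that order were further apart than their SDs. In SF_HFD the order was Itgb1 (46.2 ± 9.52), Itga6 (14.7 ± 3.07), Itga3 (14.3 ± 7.32), Itgb4 (7.04), Itga2 (4.62), Itgav (2.43), Itgb5 (2.33), Itgb6 (1.999), Itgb8 (0.0351) and Itga4 (0.0127). There the gaps between Itgb1 and Itga6 and between Itgb6 and Itgb8 exceeded the SDs and the other gaps did not. The SF_CD order rests on single libraries: without library 1 the mean of Itga6 fell from 266 to 130 CPM and that of Itga2 from 11.3 to 5.05 CPM, and without library 5 that of Itga4 fell from 21.3 to 12.5 CPM. With the longest transcript of each gene as the length, the SF_CD mean of Itga6 (61.7) came before that of Itgb1 (42.7), but in libraries 2, 3 and 4 Itgb1 was higher on that length as well. On that length Itga4 (2.18) also came before Itga2 (1.58) in SF_CD, and Itgb6 (2.96) before Itgb5 (2.53) in SF_HFD.

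**Figure D2:**
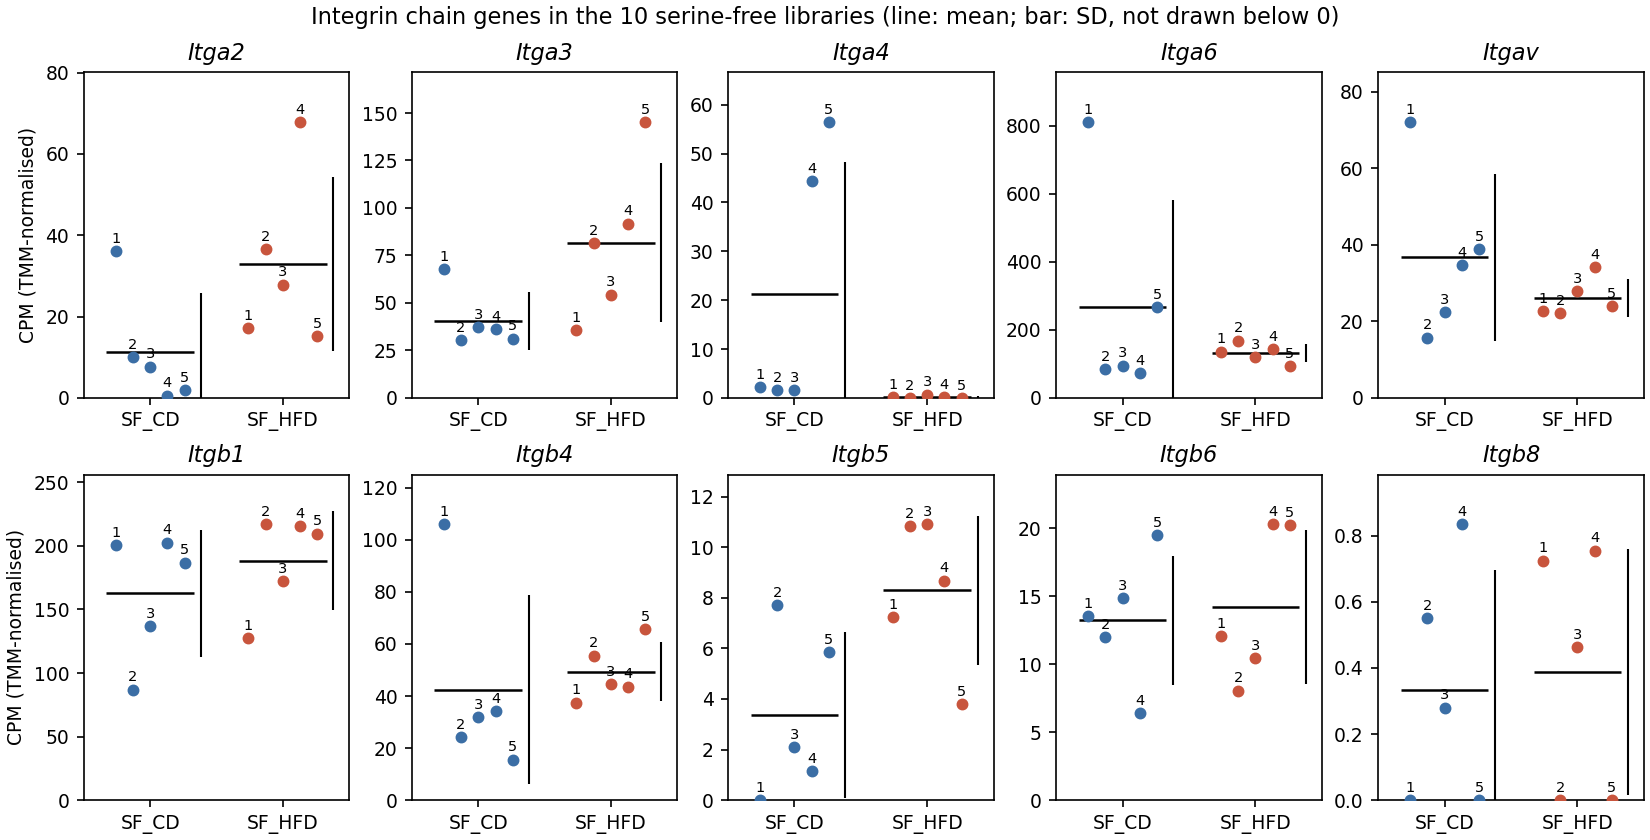
CPM of each of the 10 integrin chains in the 5 SF_CD and 5 SF_HFD libraries, numbered by library, with the group mean (line) and SD (bar, not drawn below 0). Itga4 is high in SF_CD libraries 4 (44.4 CPM) and 5 (56.5 CPM) only, and SF_CD library 1 is the highest point for Itga6, Itgav and Itgb4.

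Itga4 (chromosome 2, 79255426 to 79333123, plus strand, mm10) was at 2.25, 1.65, 1.54, 44.4 and 56.5 CPM in SF_CD libraries 1 to 5. In SF_HFD libraries 1 to 5 it was at 0.0905, 0, 0.648, 0.151 and 0 CPM. Every SF_CD value lay above every SF_HFD value, but SF_CD libraries 4 and 5 stood more than 10-fold above the other 3, so the group holds a low and a high set of libraries. The group means were 21.3 ± 27.0 and 0.178 ± 0.270 CPM, and the log2 fold change was -6.33 ± 1.21 with an adjusted p of 0.0314. With limma-voom it was -3.38, with an adjusted p of 0.156.

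The counts behind these values are few outside SF_CD library 4. SF_CD libraries 1 to 5 had 1, 15, 11, 585 and 29 counts of Itga4 and SF_HFD libraries 1 to 5 had 1, 0, 7, 2 and 0. Summed over libraries, 641 of the SF_CD counts against 10 of the SF_HFD counts gave a ratio of 85.0 in CPM, with an exact 95% interval of 45.9 to 178 that covers counting error only. A count of 0 in SF_HFD library 5 still allows 3 counts, or 4.12 CPM of the library total, which is above the level in SF_CD libraries 1, 2 and 3. Leaving out any of SF_CD 1, 4 or 5 or SF_HFD 1, 2, 4 or 5 ended the call, with adjusted p-values of 0.0691 to 0.115, while the log2 fold change stayed between -6.55 and -5.73, and without the 3 libraries under 1000000 counts it was 0.161 with a log2 fold change of -5.93.

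Among the genes whose log2 CPM followed Itga4 most closely over the 10 libraries were Adh7 (an alcohol dehydrogenase, Pearson r 0.986) and Igf1 (insulin-like growth factor, 0.981). These correlations are a description over 10 points that share the same depths and the same high libraries. Igf1 reached 662 and 545 CPM in SF_CD libraries 4 and 5, against 11.6 to 40.6 CPM in SF_CD libraries 1 to 3 and 0.905 to 8.79 CPM across SF_HFD. Thus the pattern is not particular to Itga4: 592 of 11780 tested genes (5.03%) had SF_CD libraries 4 and 5 as their 2 highest, and 39 genes reached r above 0.9 with Itga4.

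Because Itga4 is best known from leukocytes, the leukocyte and mast cell markers were read in the same libraries. Leukocyte markers (17 genes, 4 tested, 1 lower) summed to 36.2 to 125 CPM in SF_CD and to 7.84 to 45.9 CPM in SF_HFD, and Fcer1g, an Fc receptor subunit, fell by 5.63 on the log2 scale (adjusted p 0.00826). Lyz2, the lysozyme of myeloid cells, was at 36.1, 18.9, 21.3, 15.6 and 79.8 CPM in SF_CD and at most 15.2 CPM in SF_HFD, without overlap (log2 fold change -3.39, adjusted p 0.0760). The other tested markers were Cd52 and Cd68. Cd52 had means of 1.89 ± 1.42 and 5.25 ± 9.08 CPM (log2 fold change 1.98, adjusted p 0.540). Cd68 had means of 24.6 ± 6.31 and 21.4 ± 8.88 CPM (log2 fold change -0.20, adjusted p 0.898). The lowest SF_CD sum, 36.2 CPM, was in library 4, which held 585 Itga4 counts. That library also had the lowest SF_CD values of Fcer1g (1.37 CPM) and Lyz2. Tyrobp, a myeloid adaptor, had 28 and 0 counts, and Laptm5 9 and 1. Ptprc, the pan-leukocyte surface protein CD45, had 14 and 31 counts and was at 0.379 and 0 CPM in SF_CD libraries 4 and 5, where Itga4 was highest and where the 0 in library 5 allows up to 5.73 CPM. Cd3e and Ms4a1, T and B cell genes, had 0 counts in all 10 libraries. Of 11 mast cell markers, 2 were tested and Hdc (histidine decarboxylase) was lower in SF_HFD, at 103 and 46.7 CPM in SF_CD libraries 4 and 5 and at most 1.82 CPM elsewhere. That call was lost in 10 of 16 other settings, with adjusted p-values of up to 0.169. The other tested one, Cma1, a mast cell chymase, had means of 40.7 ± 35.9 and 50.8 ± 18.1 CPM (log2 fold change 0.37, adjusted p 0.834), with 8.80 CPM in SF_CD library 4 and 101 CPM in library 5. Mast cell markers summed to 24.8 to 148 CPM in SF_CD and 34.3 to 77.8 CPM in SF_HFD, with Kit at 2.43 and 0 CPM in SF_CD libraries 4 and 5 and Cpa3, Mcpt4, Tpsab1, Fcer1a and Ms4a2 at 0 in all 10. Lyz2, Cd52, Cd68, Tyrobp, Laptm5 and Cma1 were named after their values were seen. The part of leukocytes or mast cells in the Itga4 values was not tested. In bulk RNA, fewer cells of a type and less RNA per cell cannot be told apart.

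A partner and 3 ligands of Itga4 were read beside it. Itgb7, its gut-homing partner, had 6 counts over the SF_CD libraries and 21 over the SF_HFD libraries and was not tested. Vcam1, a ligand named here after its values were seen, ran the other way, with 7 counts in SF_CD and 142 in SF_HFD. Its groups did not overlap (log2 fold change 3.65 ± 0.85, adjusted p 0.0832). It was at 0 in SF_CD libraries 1, 4 and 5. In the shallow libraries 1 and 5 a 0 allows up to 6.003 and 5.73 CPM of the total, against 1.27 to 5.81 CPM in SF_HFD. Madcam1 had 0 counts in all libraries. Fn1, fibronectin, also named after its values were seen, averaged 42.1 ± 19.9 CPM under SF_CD against 48.6 ± 9.68 CPM under SF_HFD, with overlapping groups.

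**Figure D3:**
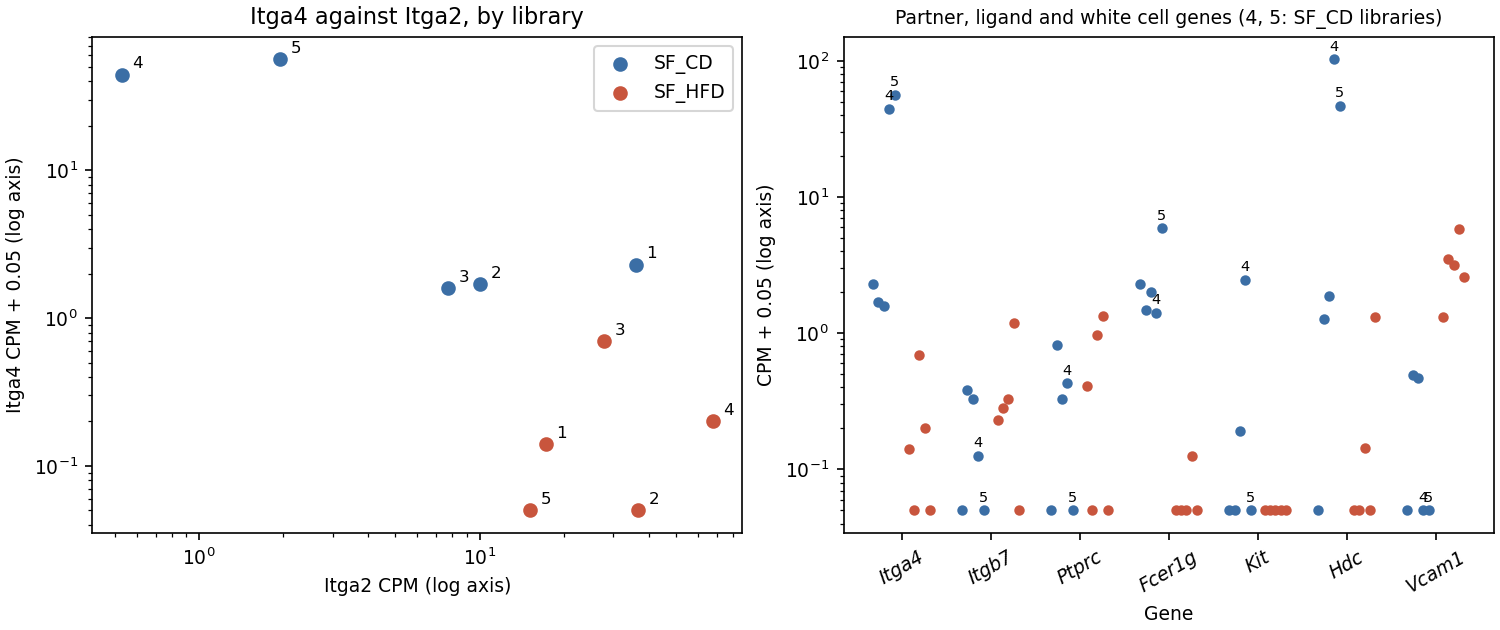
Left, CPM of Itga4 (with 0.05 added) against CPM of Itga2 in each of the 10 libraries, both axes log, points numbered by library; right, CPM with 0.05 added on a log axis for Itga4, Itgb7, Ptprc, Fcer1g, Kit, Hdc and Vcam1 in SF_CD (blue) and SF_HFD (red), with SF_CD libraries 4 and 5 numbered. Those 2 libraries have the highest Itga4 (44.4 and 56.5 CPM) and Hdc (103 and 46.7 CPM). They also have the lowest Itga2 (0.531 and 1.95 CPM, on 7 counts and 1 count). Vcam1 is at 0 in both and in SF_CD library 1. In the shallow libraries 1 and 5 a 0 allows up to 6.003 and 5.73 CPM.

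Itga2, the α chain of a collagen receptor (chromosome 13, 114833081 to 114932100, minus strand), was at 36.1, 10.03, 7.71, 0.531 and 1.95 CPM in SF_CD libraries 1 to 5. In SF_HFD it was at 17.2, 36.6, 27.8, 67.9 and 15.2 CPM. SF_CD library 1 lay among the SF_HFD values and the other 4 lay below all of them. Means were 11.3 ± 14.4 and 32.9 ± 21.4 CPM, and the log2 fold change of 1.82 ± 0.78 had an adjusted p of 0.371. Library 1 of SF_CD rests on 16 counts, and without it the log2 fold change was 2.59 with an adjusted p of 0.183.

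Itga2 was lowest where Itga4 was highest, in SF_CD libraries 4 and 5, and across the 10 libraries their log2 CPM had a Pearson r of -0.849. Itga2 rested on 7 counts in library 4 and on 1 count in library 5. In library 5, 3 counts are 5.73 CPM of the total, so the low Itga2 value and share there are uncertain. As shares of the summed α chains per kilobase, Itga4 made up 15.2% and 9.41% in those libraries and at most 0.672% in the other 8. Itga2 made up 0.357% and 0.636% there, 4.45% to 7.98% in the other SF_CD libraries and 5.29% to 21.3% in SF_HFD. The gene most like Itga2 was Fosl1, a subunit of the AP-1 transcription factor (r 0.957 over the same 10 libraries).

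**Figure D4:**
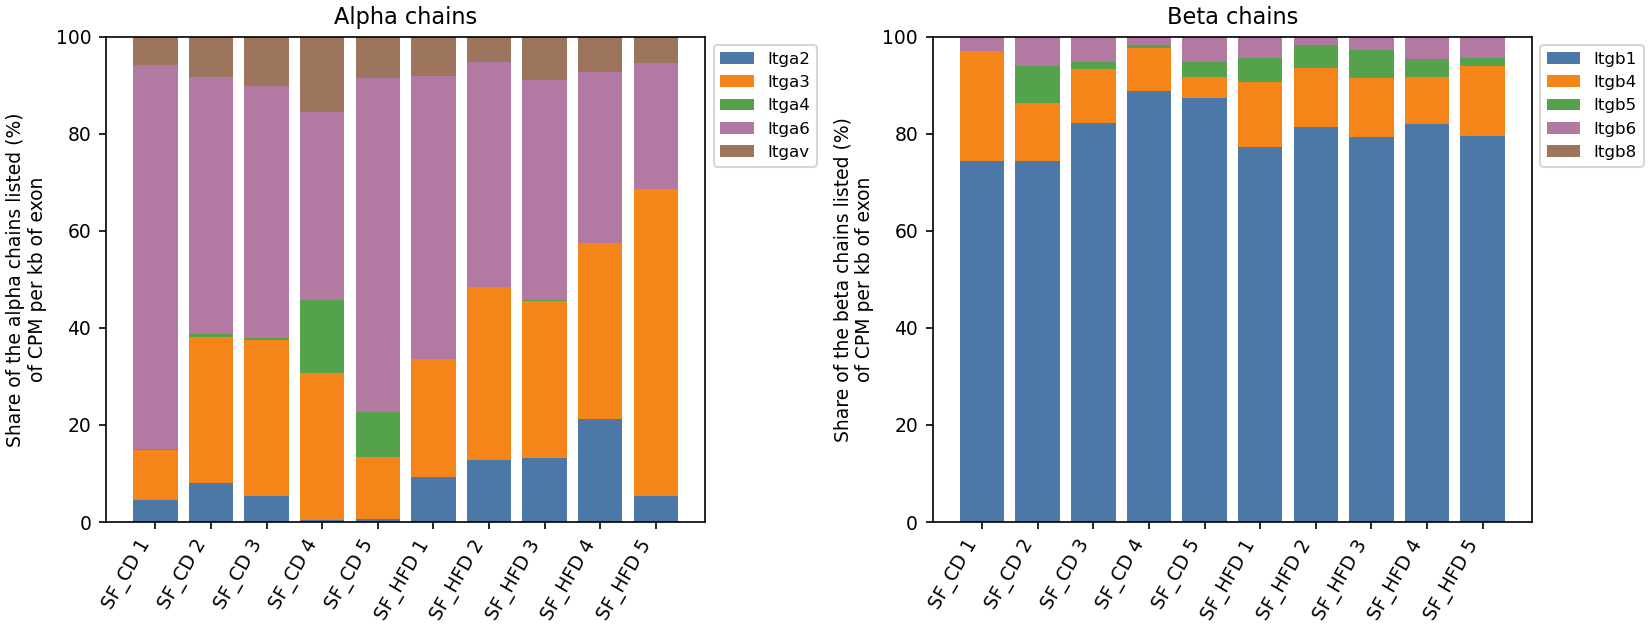
Share (%) of each chain in the summed CPM per kilobase of the 5 α chains and of the 5 β chains, per library. Itga4 takes a visible share in SF_CD libraries 4 (15.2%) and 5 (9.41%) alone, and Itgb1 takes 74.3% to 88.9% of the β chains in all 10 libraries.

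Itga3, the α chain of a laminin receptor that pairs with Itgb1 (chromosome 11, 95044474 to 95076801, minus strand), was at 67.6, 30.4, 37.3, 36.2 and 31.2 CPM in SF_CD. In SF_HFD it was at 35.8, 81.6, 54.3, 91.8 and 145 CPM. SF_HFD library 1 lay within the SF_CD range and 3 of the other 4 lay above all SF_CD values. The log2 fold change was 1.03 ± 0.41 with an adjusted p of 0.340, from means of 40.5 ± 15.4 and 81.8 ± 41.8 CPM. Its most similar gene was Yipf3, at r 0.944.

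Itga6 and Itgb4, the chains of the hemidesmosome receptor, had their highest values in SF_CD library 1. Itga6 (chromosome 2, 71745616 to 71858416, plus strand) was at 812, 83.9, 95.1, 72.8 and 267 CPM in SF_CD and at 136, 169, 120, 142 and 93.5 CPM in SF_HFD. SF_CD library 1 was above all others and libraries 2 and 4 of SF_CD were the lowest, so the groups overlapped widely. Its log2 fold change was -0.98 ± 0.58 (adjusted p 0.530), and it was 0.07 without SF_CD library 1 and 0.76 without the 3 libraries under 1000000 counts, so its sign turned without them.

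Itgb4 (chromosome 11, 115974709 to 116008412, plus strand) was at 106, 24.1, 31.95, 34.3 and 15.6 CPM in SF_CD. In SF_HFD it was at 37.5, 55.5, 44.6, 43.6 and 65.7 CPM. Apart from SF_CD library 1, which was highest, every SF_CD value was below every SF_HFD value. The log2 fold change was 0.26 ± 0.45 (adjusted p 0.874) and was 0.84 without SF_CD library 1. The ratio of Itga6 to Itgb4 per kilobase was 1.65 to 13.3 in SF_CD, with a median of 2.70. The highest ratios, 13.3 and 5.95, came from the shallow libraries 5 and 1, on 8 and 47 Itgb4 counts. SF_CD libraries 2, 3 and 4 were at 2.70, 2.31 and 1.65. In SF_HFD the ratio was 1.11 to 2.82, with a median of 2.36, so Itga6 was the more abundant transcript of the pair in every library. SF_CD library 1 was the highest of 10 libraries for 18.3% of all genes tested, Itga6, Itgav and Itgb4 among them.

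In the 7 libraries with over 1000000 counts (3 SF_CD, 4 SF_HFD) 4 of the 9 chains had groups without overlap, namely Itga2, Itga4, Itga6 and Itgb4, against 19.0% of all genes tested. Itga4 was lower in SF_HFD and the other 3 were higher. Groups without overlap and with the higher values in SF_HFD were found in 9.47% of all genes. In a fit to these 7 libraries none of the 9 passed the adjusted threshold. The setting was planned, but counting overlap within it was decided after seeing the data.

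Itgb1 (chromosome 8, 128685654 to 128733200, plus strand) was at 201, 86.9, 137, 203 and 187 CPM in SF_CD and 127, 217, 172, 216 and 210 CPM in SF_HFD. SF_CD library 2 was the lowest and the groups overlapped throughout. Means were 163 ± 50.1 and 188 ± 38.8 CPM, with a log2 fold change of 0.22 ± 0.33 (adjusted p 0.852). It supplied 74.3% to 88.9% of the β chain level per kilobase in every library.

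Itgav, the α chain of the RGD and TGF-β-releasing integrins (chromosome 2, 83724397 to 83806916, plus strand), was at 72.1, 15.8, 22.4, 34.8 and 38.9 CPM in SF_CD and 22.6, 22.1, 27.8, 34.2 and 24 CPM in SF_HFD. All SF_HFD values lay within the SF_CD range. The log2 fold change was -0.43 ± 0.41 (adjusted p 0.740), and it was 0.14 without the 3 shallow libraries.

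The β chains Itgb5, Itgb6 and Itgb8 were scarcer than Itgb1. Itgb5 (chromosome 16, 33829665 to 33949338, plus strand), a vitronectin receptor chain, was at 0, 7.71, 2.10, 1.14 and 5.84 CPM in SF_CD and 7.24, 10.8, 10.9, 8.68 and 3.79 CPM in SF_HFD. SF_CD libraries 1, 3 and 4 lay below all SF_HFD values and libraries 2 and 5 did not. The log2 fold change was 1.28 ± 0.62 with an adjusted p of 0.439, and 2.13 without SF_CD library 2. The 0 in SF_CD library 1 allows up to 6.003 CPM of its total, which is above the values in SF_CD libraries 3, 4 and 5 and SF_HFD library 5 and below those in the remaining 5.

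Itgb6, the epithelial TGF-β-releasing chain (chromosome 2, 60598292 to 60722643, minus strand), was at 13.5, 12.0, 14.9, 6.38 and 19.5 CPM in SF_CD. In SF_HFD it was at 12.0, 8.07, 10.5, 20.3 and 20.2 CPM. The groups covered the same range, and the log2 fold change of 0.14 ± 0.43 (adjusted p 0.939) turned negative when either library 4 was left out. Per kilobase of exon, Itgb6 stood at 0.778 to 3.53 times Itgb5 in the 4 SF_CD libraries with Itgb5 counts. In SF_HFD it stood at 0.372 to 2.66 times, and the medians were 2.24 and 0.831. The order of this pair in SF_HFD depends on the length used. With the longest transcript the SF_HFD mean of Itgb6 (2.96 CPM per kilobase) was above that of Itgb5 (2.53).

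Itgb8 (chromosome 12, 119158022 to 119238802, minus strand), the other chain that releases TGF-β, was read 18 times over SF_CD and 23 times over SF_HFD. It reached at most 0.835 CPM in SF_CD and 0.755 CPM in SF_HFD and was 0 in SF_CD libraries 1 and 5 and SF_HFD libraries 2 and 5, so no difference was detectable at this depth.

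The closest genes to the remaining chains were Pip5k1a, a lipid kinase, for Itga6 (r 0.992), Dync1h1, the dynein heavy chain, for Itgav (0.961), Csgalnact2 for Itgb1 (0.958), Tnks1bp1 for Itgb4 (0.974), Taf1c for Itgb5 (0.963) and Rab3d for Itgb6 (0.871). As many as 243 genes exceeded r 0.9 with Itga6, against 0 with Itgb6. These values share the 10 libraries and their depths, and SF_CD library 1 was the highest for Itga6 and Itgav.

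Among the 17 other integrin chains in the table, 2 were tested and none changed with edgeR. Both had unadjusted p-values under 0.05, as had 1372 of all 11780 genes tested. DESeq2 and limma-voom each called 1 (298 and 173 over all genes). That was Itga5, the fibronectin receptor α chain, at 0, 1.43, 0.420, 2.13 and 1.95 CPM in SF_CD and 5.34, 5.99, 5.27, 6.49 and 8.84 CPM in SF_HFD. Its groups did not overlap, and the log2 fold change was 2.23 ± 0.59 with an edgeR adjusted p of 0.144. Itga7, a laminin receptor chain of muscle, had means of 6.85 ± 5.90 CPM in SF_CD and 1.26 ± 1.19 CPM in SF_HFD (log2 fold change -2.07, adjusted p 0.336), with its highest values, 8.96 and 15.6 CPM, in SF_CD libraries 4 and 5. The leukocyte chains were nearly absent: Itgal had 6 and 1 counts, Itgam 2 and 1 and Itgb2 14 and 3 in SF_CD and SF_HFD. The collagen receptor chain Itga11 was counted 4 times in SF_CD and 75 times in SF_HFD.

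The ligands showed an almost uniform sign. Of 16 tested ligands other than laminins, 16 had a positive log2 fold change (15 with DESeq2's median-ratio scaling). The median was 1.06 against 0.02 over all genes, yet edgeR called 0, with 7 at an unadjusted p under 0.05. DESeq2 called 5 and limma-voom 7. Over all 11780 genes tested, 1372 had an unadjusted p under 0.05, DESeq2 called 298 and limma-voom 173. Thbs1, thrombospondin, was at 17.5 to 47.1 CPM in SF_CD and 49.1 to 123 CPM in SF_HFD, with no overlap, a log2 fold change of 1.47 ± 0.37 and an adjusted p of 0.117. Spp1, osteopontin, an RGD ligand and the most abundant of them, had means of 375 ± 333 and 743 ± 466 CPM with overlapping groups. Tnc, tenascin, named after its values were seen, was at 0.551 to 3.89 CPM in SF_CD and 3.79 to 8.14 CPM in SF_HFD, with an adjusted p of 0.0985.

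Markers of mesenchymal cells were read beside the ligands and Itga5. Of 12 such genes 9 were tested, and 9 had positive log2 fold changes (8 with median-ratio scaling) with a median of 2.28. The lowest were 0.16 for Lum and 0.005 for Col3a1, both named after their values were seen. With edgeR 2 rose, Myl9 and Acta2. Myl9, a smooth muscle myosin light chain, went from 1.77 to 46.9 CPM and Acta2, smooth muscle actin, from 6.79 to 97.6 CPM. Over all 11780 genes tested, edgeR called 38, of which 18 were higher in SF_HFD. The 12 genes summed to 15.8 to 105 CPM in SF_CD and 206 to 331 CPM in SF_HFD. Their part in the levels of the ligands and of Itga5 was not tested. The collagen genes Col1a1, Col1a2 and Col3a1 stand in both lists. Endothelial markers, 1 of 8 tested, summed to 4.74 to 33.8 CPM in SF_CD and 2.07 to 6.32 CPM in SF_HFD. The highest sum, in the shallow SF_CD library 1, held 31.6 CPM of Pecam1 on 14 counts. Enteroendocrine and tuft markers, 1 of 9 tested, summed to 1.65 to 17.5 CPM in SF_CD and 0.453 to 2.30 CPM in SF_HFD. Their highest sums, 14.7 and 17.5 CPM in SF_CD libraries 4 and 5, held 12.75 and 15.6 CPM of Dclk1. Dclk1 was not tested and was named after its values were seen.

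**Figure D5:**
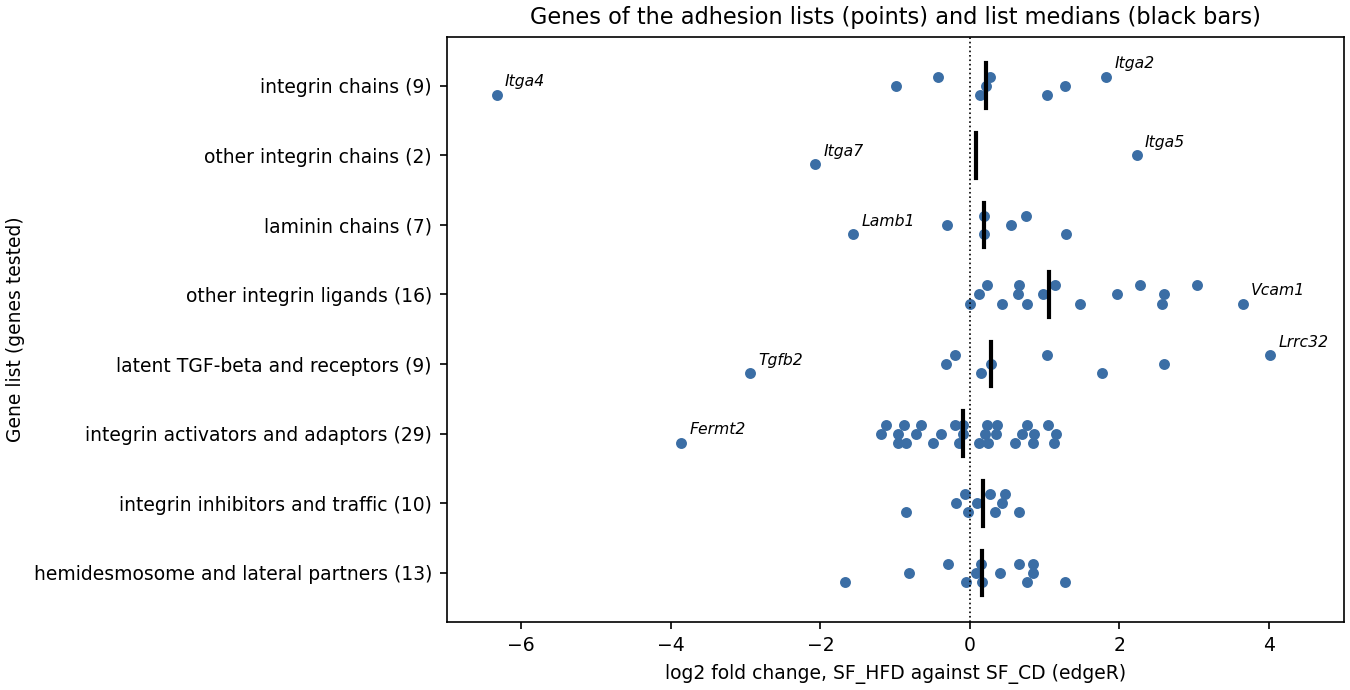
Log2 fold change (SF_HFD minus SF_CD) of each tested gene in the integrin chains and in the lists of ligands, adaptors and partners, with the median of each list. The 16 ligands other than laminins lie above 0 (15 with median-ratio scaling), with a median of 1.06, and Itga4 (-6.33) and Fermt2 (-3.86) lie far below the rest of their lists.

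Laminin chains, the ligands of Itga3, Itga6 and Itgb4, were tested in 7 cases, 5 positive and 2 negative with a median of 0.20. An unadjusted p under 0.05 was reached by 2, against 1372 of 11780 over all genes. Calls were 0 with edgeR, 0 with DESeq2 (298 over all genes) and 1 with limma-voom (173 over all genes). Lamb3, a chain of the epithelial laminin that hemidesmosomes bind, had means of 47.1 ± 8.92 CPM in SF_CD and 79.0 ± 16.2 CPM in SF_HFD, with overlapping groups and an adjusted p of 0.364. Lamb1, named after its values were seen, repeated the Itga4 pattern, at 40.8 and 56.5 CPM in SF_CD libraries 4 and 5 and at most 10.5 CPM elsewhere; its log2 fold change of -1.56 (adjusted p 0.437) turned to 0.47 with limma-voom.

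In the latent TGF-β list, which holds what Itgav with Itgb6 or Itgb8 acts on, 9 genes were tested, 6 positive and 3 negative with a median of 0.28. Here edgeR called 0, with 5 at an unadjusted p under 0.05, against 1372 of 11780 over all genes. DESeq2 called 3 (298 over all genes) and limma-voom 2 (173 over all genes). Tgfbr2, the signalling receptor, had means of 17.7 ± 4.83 and 36.3 ± 17.6 CPM (adjusted p 0.349), and the ligand Tgfb2 had means of 16.9 ± 20.1 and 1.67 ± 1.16 CPM (adjusted p 0.201), highest at 50.6 CPM in SF_CD library 5. Ltbp2, a latent TGF-β binding protein, and Lrrc32, which tethers latent TGF-β to the cell surface, were named after their values were seen. They had adjusted p-values of 0.0985 and 0.132 with log2 fold changes of 2.59 and 4.01, the latter on 4 counts in SF_CD and 102 in SF_HFD.

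Inside the cell, of 29 tested activators and adaptors 14 were positive and 15 negative, with a median of -0.10. They had 0 calls by edgeR, DESeq2 and limma-voom. An unadjusted p under 0.05 was reached by 3, against 1372 of 11780 over all genes. The most abundant were Actn4, an α-actinin, at 174 ± 58.2 and 199 ± 21.3 CPM, and Tns4, a tensin, at 186 ± 231 and 170 ± 21.2 CPM. Fermt2, a kindlin best known from cells other than epithelium and named after its values were seen, was at 83.4 and 189 CPM in SF_CD libraries 4 and 5 and at most 9.90 CPM in the other 8. Fermt2 had a log2 fold change of -3.86 ± 1.22 and an adjusted p of 0.232, and its sign turned with limma-voom (0.074).

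Inhibitors and traffic genes (10 tested, 6 positive, 4 negative, median 0.18) and hemidesmosome genes and lateral partners (13 tested, 9 positive, 4 negative, median 0.17) had 0 calls by edgeR, DESeq2 and limma-voom. An unadjusted p under 0.05 was reached by 0 and 3 genes, against 1372 of 11780 over all genes. Rab25, a small GTPase that recycles integrins in epithelia, was at 194 ± 109 and 209 ± 48.0 CPM, and Rab11a at 111 ± 51.7 and 142 ± 37.6 CPM. The tetraspanins Cd9 and Cd81, which sit beside integrins in the membrane, had means of 1011 and 1068 CPM and of 1037 and 847 CPM, all with overlapping groups.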

How the data were processed

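The authors deposited 1 table of estimated counts per gene as whole numbers, made with Salmon 1.3.0 on mm10 per the submitters' processing notes, from poly(A)-selected, strand-specific libraries per the labels' protocols. How transcripts were summed to genes is not given in the sources used here. Of 54354 rows, 1243 carry no symbol; 94.7% of identifiers occur in GENCODE M21, the source of coordinates and exon lengths. The members and gene lists were chosen with earlier results of these data known.

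The 10 SF_CD and SF_HFD libraries, grouped by the labelled diet, were compared with edgeR 4.0.16 (R 4.3.3; quasi-likelihood test, robust, TMM, filterByExpr, Benjamini-Hochberg adjustment, threshold 0.05) across all genes that passed the filter. The test was checked on simulated counts. Correlations used log2 CPM with a prior count of 2. DESeq2 1.42.0, limma 3.58.1 (voom), RLE and upper quartile scaling, other filters, a replicate block and leaving out libraries were alternatives. Intervals and floors cover counting error only.

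Named genes were all members, the genes most similar to each (3 for a member called or without overlap, otherwise 1), and in each list up to 4 called genes or, with none, the 2 most abundant; further genes, named as such, were chosen after their values were seen. Some genes the rule names are not reported here. Totals ranged from 499774 to 12841275 counts.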

Additional observations from a re-analysis of the deposited data

Results flagged for a closer look

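In 5 of 20 groups of 5 libraries examined, 1 value stood apart by Dixon's criterion (gap over range above 0.71). Chance would flag about 1 in 20 groups of independent, normally distributed values. The chains share the same libraries and their CPM are not on a log scale, so that rate is only a rough guide. In SF_CD, library 1 was the one in all 4 cases: Itga2 at 36.1 CPM (next 10.03), Itga3 at 67.6 CPM (next 37.3), Itga6 at 812 CPM (next 267) and Itgb4 at 106 CPM (next 34.3). That library has 499774 counts, 22% of them in ribosomal RNA genes and 12.1% in Malat1, and the part of these in its values was not tested. In SF_HFD, Itga4 in library 3, at 0.648 CPM from 7 counts, stood above the next value of 0.151 CPM.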

How the results depend on the processing

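Depth limits most chains: 3 libraries hold under 1000000 counts, and low levels there rest on few counts. Against 38 genes called, there were 78 without a filter, 298 with DESeq2, 173 with limma-voom (sample quality weights), 22 with a replicate block and 16 to 88 with 1 library left out (88 without SF_CD 2, 16 without SF_HFD 4). Itga4 was called in 6 of 17 settings. Of the integrin chains, 0 were called without a filter, with a stricter filter (which did not test Itga4), with limma-voom, with the block, or without the 3 shallow libraries, and 0 to 1 with 1 library left out; in the first and the last 3 of these the adjusted p of Itga4 was 0.103, 0.156, 0.0947 and 0.161 and its log2 fold change stayed negative (-3.38 with limma-voom). Without the shallow libraries 4 chains did not overlap, an addition made after seeing the data. Same-numbered libraries did not deviate together (correlations -0.211 to 0.136, 1 of 5 closest to its own number), so no pairing by number was seen. These few correlations, some from shallow libraries, cannot exclude one. Signs reversed with limma-voom for Itga6 (0.38), Itgav (0.34), Tns4 (0.89), Rab25 (-0.087), Cd9 (-0.092), Pip5k1a (0.37), Dync1h1 (0.42), Lamb1 (0.47) and Fermt2 (0.074), with the block for Tns4 (0.58), and without the shallow libraries for Itga6 (0.76), Itgav (0.14), Tns4 (1.08), Rab25 (-0.25), Cd9 (-0.22), Pip5k1a (0.62) and Dync1h1 (0.26). With 1 library left out the log2 fold change ranged from -1.26 to 0.073 for Itga6, -0.083 to 0.29 for Itgb6, -0.38 to 1.05 for Tns4, -0.074 to 0.37 for Rab25, -0.061 to 0.23 for Cd9, -0.19 to 1.38 for Lgals4, -1.32 to 0.12 for Pip5k1a, -0.46 to 0.097 for Dync1h1 and -0.17 to 0.61 for Csgalnact2. The cause of these changes was not tested. With the length of the longest transcript, levels moved to 30.7 (Itga6) and 3.71 (Itgav) CPM per kilobase in SF_HFD and for Itgb6 to 2.76 in SF_CD and 2.96 in SF_HFD.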
